A study of Mus musculus with 6 samples.

Results

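The 39 Hox cluster genes of the mouse were described cell type by cell type in the cardiogenic region of embryos at E10.5 (embryonic day). The genes were all those in the deposited gene list whose symbol is Hox, a letter from a to d and a number, 39 of 32285 genes. No measured value entered the choice. Their unique molecular identifiers (UMIs, each marking a captured RNA molecule) were counted over the 35962 of 53362 cell barcodes that had 2500 or more genes detected and no more than 10% mitochondrial UMIs. All embryos were C57BL/6 and wild type. Sires had normal blood glucose. The dams had received either vehicle and stayed normoglycemic (3 samples) or streptozotocin (STZ), which kills insulin-producing beta cells, and were hyperglycemic (3 samples). The counts came as 1 matrix with 6 barcode suffixes, called libraries 1 to 6 here. No source used here pairs a suffix with a sample, so no library has a treatment and vehicle and STZ are not compared. The matrix is therefore 1 sample, libraries are shown one by one, and no test was run.

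Hox proteins are homeodomain transcription factors that give cells along the head-to-tail axis their positional identity. Their genes lie in 4 clusters, HoxA to HoxD, and genes at the same place in different clusters form a paralog group, numbered from 1 at the anterior end to 13 at the posterior end. Low-numbered groups are switched on earlier and reach further forward, and retinoic acid is a known inducer of them. In the pharyngeal region the neural crest of the first arch carries no Hox code, crest of the second arch depends on Hoxa2, and crest of the more posterior arches adds groups 3 and above. Hox proteins bind DNA together with TALE-class cofactors of the Pbx and Meis families.

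Cells were sorted into types by markers that include no Hox gene, and each type is called by the name of its marker list with "-like". The 14 types with at least 200 cells held 23882 cells (66.4%). A further 8583 cells passed no gate, 3367 passed more than 1 and were left out, and 130 fell in 4 smaller types. Libraries held 4903 to 7136 retained cells with median depths of 30533 to 35634 UMIs. Library 1 stands apart in Xist, the RNA of the inactive X chromosome, at 383 counts per 1000000 UMIs (CPM) against 0.0661 to 0.342 in libraries 2 to 6. Of the retained cells, 2890 (8.04%) carry a barcode sequence that also occurs in another library. Levels are CPM over the summed UMIs of a type. They are not scaled by gene length, which does not set a 3′ count, and capture differs between genes, so each gene is compared with itself across types. Genes such as Hoxa3, Hoxa4, Hoxa7, Hoxa11, Hoxb2, Hoxb3, Hoxb5, Hoxd3 and Hoxd4 have exons opposite those of antisense genes, and whether strand was used in counting is not given in the sources used here, so reads of such partners may be mixed. Brackets give 95% intervals, exact Poisson for levels, exact binomial for shares and the matching form for ratios; all cover counting error only, not differences between embryos.

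Hox transcripts were detected in nearly every tissue of the dissection, but from the front end of the clusters. The retained cells held 279813 Hox UMIs, 213 CPM, and 76.9% of cells had at least 1. The summed level was 136, 194, 167, 255, 284 and 240 CPM in libraries 1 to 6, lowest in library 1 and highest in library 5. It was highest in neuron-like cells at 765 CPM, with 671 to 845 CPM over the 5 libraries with at least 20 such cells. It was 513 CPM in crest and glia-like cells, 430 in splanchnic mesoderm-like, 410 in paraxial mesoderm-like, 289 in endoderm-like, 273 in crest mesenchyme-like and 216 in surface ectoderm-like cells. Levels were lower in several types of the heart and in branchiomeric muscle-like cells. Cardiomyocyte-like cells had 26.4 CPM (19.2 to 35.2 over libraries), endothelium-like cells 63.7, branchiomeric muscle-like cells 81.6 and cushion mesenchyme-like cells 86.6. Mesothelium-like cells, gated by mesothelial and epicardial markers, had 126 CPM (65.5 to 229) and smooth muscle-like cells 156 CPM (132 to 188). Erythroid-like cells, the lowest type, had 5.55 CPM (3.00 to 13.9), and 91.7% of them had no Hox UMI. They also had the greatest median depth, 64982 UMIs. The level of stray RNA from outside cells was not measured, so theirs is not a measured background. The library ranges of cardiomyocyte-like and erythroid-like cells did not overlap.

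Of the 39 genes, 15 reached 10 CPM in at least 1 type, and 35.6% of all 32285 genes did so, close to the Hox genes' own share. Among the 15 were Hoxa2 to Hoxa5, Hoxb1 to Hoxb6, Hoxb8, Hoxc4, Hoxd3 and Hoxd4. Hoxb8 at 12.1 CPM lay just inside this level and Hoxd1 at 9.42 CPM just outside. For 7 of the 15, the highest type had at least 2 times the level of the next, against 14.1% of all genes at 10 CPM. For 9 of the 15, the highest type was the same in every library with at least 20 cells of that type, against 35.4%. For Hoxb2 to Hoxb6, Hoxd3 and Hoxd4, all among the 9, these were 5 of the 6 libraries. A gene that reaches 10 CPM in 1 type alone, as Hoxb6 did, has to differ between types, so these counts are a description. Another 7 genes reached 1 CPM in some type without reaching 10 (Hoxa9, Hoxa10, Hoxa11, Hoxb7, Hoxb9, Hoxc5 and Hoxd1). Hoxa6, Hoxa7, Hoxa13, Hoxc6, Hoxc8, Hoxc9, Hoxc12, Hoxc13, Hoxd8, Hoxd9, Hoxd11 and Hoxd13 stayed below 1 CPM in every type. No UMI was found for Hoxb13, Hoxc10, Hoxc11, Hoxd10 and Hoxd12. In the crest mesenchyme-like cells, a count of 0 allows up to 0.0112 CPM.

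**Figure D1:**
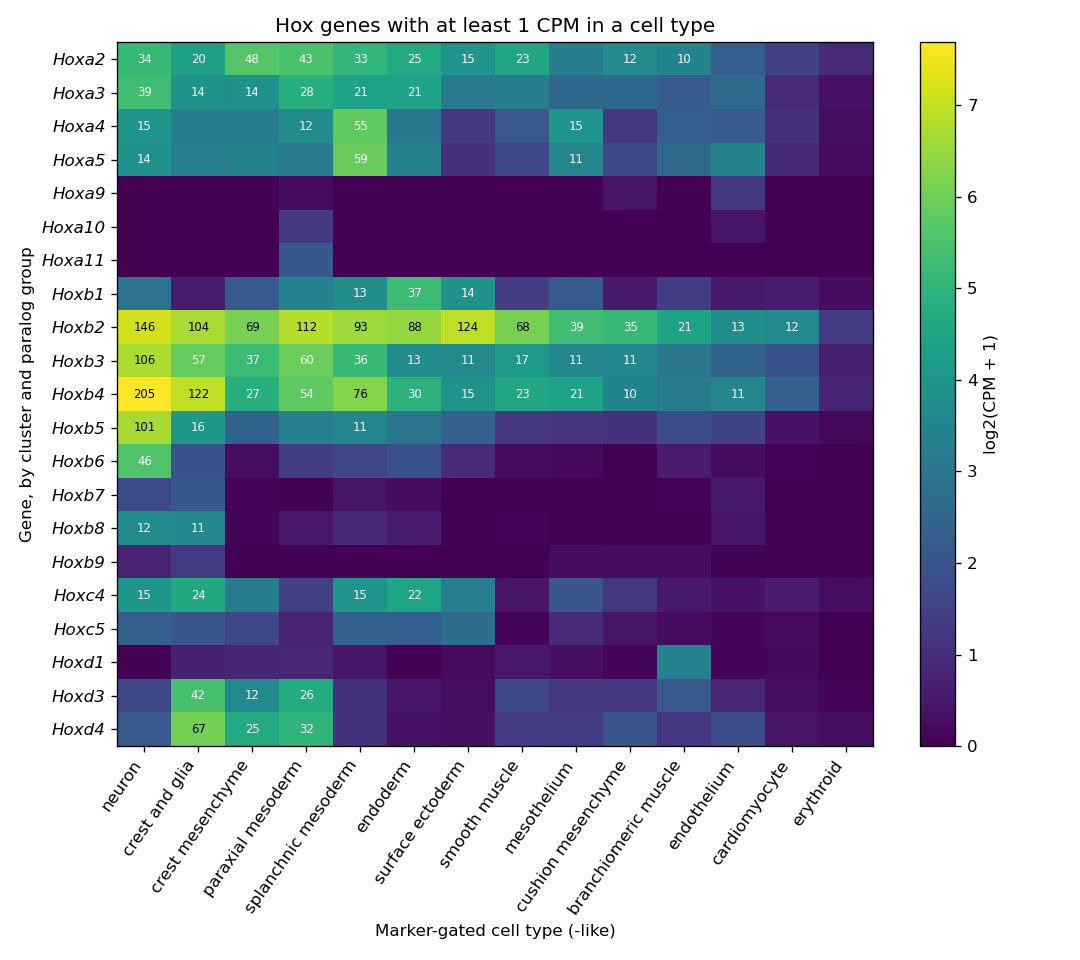
Level of Hox genes that reached 1 CPM in a cell type, as log2(CPM + 1) by colour, with genes in rows and types in columns. Printed numbers are CPM of 10 or more; Hoxb4 in neuron-like cells is the highest at 205, and rows above paralog group 6 are near 0 in most types.

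Group 1 genes are the most 3′ of the clusters and early retinoic acid targets. Hoxb1 was highest in endoderm-like cells and Hoxd1 in branchiomeric muscle-like cells. Hoxb1 (chr11:96365752-96368256, plus strand, mm10), known for hindbrain and second heart field patterning, was at 43.4, 37.8, 43.4, 33.6, 27.1 and 44.2 CPM in endoderm-like cells of libraries 1 to 6. In surface ectoderm-like cells, the next type, it was at 12.3, 17.6, 13.8, 12.7, 14.5 and 11.9 CPM. The 2 sets did not overlap, and the pooled levels were 37.4 and 13.9 CPM, a ratio of 2.70 (2.45 to 2.97). Splanchnic mesoderm-like cells, whose markers are those of the posterior heart field, had 12.8 CPM, and here library 1 was low at 2.76 and library 5 high at 19.8. Hoxd1 had a different site from Hoxb1. It was at 9.42 CPM in branchiomeric muscle-like cells, with 11.0, 10.49, 11.1, 6.41, 8.23 and 8.48 CPM in libraries 1 to 6. The next type, paraxial mesoderm-like, had 0.758 CPM, so the ratio was 12.4 (8.04 to 20.1), and the library values of the 2 types did not overlap. A Hoxd1 UMI was found in 15.7% of the branchiomeric muscle-like cells. No type other than branchiomeric muscle-like reached 1 CPM. Of the 10 markers of that type, 5 were at least 2 times higher in it than in the other retained cells, with a small constant added to both levels. This was the fewest of any type.

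The 250 bases upstream of Hoxb1 and Hoxa2 are shown because these genes have their highest levels in endoderm-like and crest mesenchyme-like cells. Such windows can be searched for Hox and cofactor motifs, though most Hox windows held neither of those marked here. The sequences are from RefSeq (GRCm38.p6, the mm10 build), written 5′ to 3′ along the gene. Capitals mark TGATNNAT, the joint motif of a Pbx and a Hox protein, and TGACAG, the motif of Meis proteins, on either strand. The Hoxb1 window is chr11:96365508-96365757 on the plus strand, and the GENCODE M21 gene model starts inside it. The Hoxa2 window is chr6:52164832-52165081 on the minus strand.
Hoxb1: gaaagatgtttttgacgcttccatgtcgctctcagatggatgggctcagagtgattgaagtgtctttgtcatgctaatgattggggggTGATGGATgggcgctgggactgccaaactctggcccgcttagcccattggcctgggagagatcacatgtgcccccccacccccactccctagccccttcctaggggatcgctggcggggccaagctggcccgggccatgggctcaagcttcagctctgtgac
Hoxa2: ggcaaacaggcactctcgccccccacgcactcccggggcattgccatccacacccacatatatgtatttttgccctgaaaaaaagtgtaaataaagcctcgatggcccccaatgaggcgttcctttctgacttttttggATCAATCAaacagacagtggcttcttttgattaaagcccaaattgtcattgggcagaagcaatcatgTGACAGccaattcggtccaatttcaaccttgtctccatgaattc
The Hoxb1 window holds TGATGGAT on its own strand, beginning 162 bases before the RefSeq start. The Hoxa2 window holds TGATTGAT on the opposite strand and TGACAG on its own, and the matches do not overlap. RefSeq windows were found for 22 of the 39 genes, 24 windows in all. TGATNNAT was in 4 of them (16.7%) and in 7.68% of 32851 mouse windows of the same length. TGACAG was in 2 (8.33%) against 15.9%, and TATAAA in 4 (16.7%) against 12.4%. A direct repeat of AGGTCA with 2 or 5 bases between, a retinoic acid receptor motif, was in 0 of 24 against 0.0183%. These are matches of letters in a short window, and no binding was measured.

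Hoxb2, a group 2 gene of the hindbrain and second arch, reached 10 CPM in 13 of the 14 types, all but erythroid-like. No other Hox gene did so in as many. Hoxb4 reached it in 11 types and Hoxa2, the other gene of group 2, in 10. Such counts also depend on capture, which differs between genes. Hoxb2 was at 172, 154, 144, 140 and 149 CPM in neuron-like cells of libraries 1, 2, 4, 5 and 6 (library 3 had only 8 such cells). Surface ectoderm-like cells had 101, 129, 132, 137, 121 and 123 CPM in libraries 1 to 6, the next type, with a pooled ratio of 1.18 (1.10 to 1.26). In cardiomyocyte-like cells Hoxb2 was the only Hox gene at 10 CPM, with 9.30, 11.8, 9.70, 13.9, 12.7 and 14.4 CPM. The other highest genes there were Hoxb4 at 4.24 CPM and Hoxb3 at 2.87 CPM. A Hoxb2 UMI was found in 29.0% of cardiomyocyte-like cells (11.3% at 10000 UMIs per cell) and in 4.69% of erythroid-like cells (1.12%), at median depths of 43611 and 64982 UMIs. Hoxa2, the selector of second arch identity, was at 53.5, 43.3, 46.0, 46.2, 46.1 and 52.1 CPM in crest mesenchyme-like cells. Paraxial mesoderm-like cells had 52.0, 31.99, 33.7, 52.6, 42.1 and 45.9 CPM, so the 2 sets overlapped and library 4 reversed the order. The pooled ratio was 1.10 (1.04 to 1.17).

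Groups 3 to 6 of the HoxB cluster were highest in neuron-like cells, a set of 247 cells with Tlx2, a gene of crest-derived neurons, among its leading genes. Hoxb4 was at 230, 229, 181, 193 and 239 CPM there in libraries 1, 2, 4, 5 and 6. Crest and glia-like cells, the next type, had 130, 135, 92.6, 148 and 109 CPM in libraries 2 to 6, all lower. The pooled ratio was 1.69 (1.57 to 1.82). Hoxb3 was at 106 CPM against 59.8 in paraxial mesoderm-like cells, a ratio of 1.77 (1.63 to 1.93), higher in 5 of 5 libraries. Hoxb5 differed more between types. Its neuron-like values were 137, 94.9, 78.1, 94.5 and 134 CPM in libraries 1, 2, 4, 5 and 6, and no library of crest and glia-like cells exceeded 20.2 CPM. The ratio of the pooled levels was 6.23 (5.28 to 7.38). Hoxb6 was at 46.4 CPM in neuron-like cells (31.2 to 59.0) and at 2.87 CPM in the next type, endoderm-like. The ratio was 16.2 (13.4 to 19.6). Hoxa3, a gene needed for organs of the third arch, was also highest in neuron-like cells, at 39.5 CPM against 27.9 in paraxial mesoderm-like cells. Its order held in 4 of 5 libraries, and library 2 had 21.2 and 32.8 CPM.

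Hoxa4 and Hoxa5, the latter a known regulator of lung mesenchyme, had their highest levels in splanchnic mesoderm-like cells. Hoxa5 was at 11.8, 21.6, 52.4, 52.0, 80.3 and 60.9 CPM in libraries 1 to 6, low in libraries 1 and 2. Neuron-like cells had 21.2, 15.6, 9.76, 18.5 and 7.08 CPM in libraries 1, 2, 4, 5 and 6. The pooled levels of 59.2 and 14.4 CPM gave a ratio of 4.10 (3.38 to 5.02), with library 1 in the opposite order. Hoxa4 was at 22.3, 40.2, 49.8, 54.4, 64.0 and 56.6 CPM in splanchnic mesoderm-like cells and at 9.28 to 21.2 CPM in neuron-like cells, and these ranges did not overlap. Its ratio was 3.61 (2.99 to 4.41). The same type also had Hoxb4 at 75.9 CPM, with 39.6 in library 1 and 86.4 in library 3.

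Hoxd3 and Hoxd4 followed another distribution, with high levels in 3 types only. Hoxd4 was at 66.9, 72.6, 55.9, 77.5 and 62.9 CPM in crest and glia-like cells of libraries 2 to 6 (library 1 had only 12 such cells). Paraxial mesoderm-like cells had 10.2, 6.91, 25.7, 14.8, 60.1 and 15.5 CPM in libraries 1 to 6, of which library 5, with 403 of the 973 cells, was far the highest. The pooled ratio was 2.13 (1.94 to 2.35), a log2 ratio of 1.09, and without library 5 the log2 ratio was 2.14. Requiring 1 more marker lowered it to 0.44. Hoxd3 was at 42.3, 25.6 and 11.7 CPM in crest and glia-like, paraxial mesoderm-like and crest mesenchyme-like cells. The log2 ratio of the first 2 was 0.72, and it was 1.38 without library 5 and 0.30 with 1 more marker. Hoxd4 in crest mesenchyme-like cells was at 25.1 CPM. In the other 11 types neither gene exceeded 3.44 CPM, the Hoxd4 level in neuron-like cells. Exons of Hoxd3 and Hoxd4 overlap on the same strand in GENCODE M21, so the division of reads between them is uncertain. Hoxc4 was at 24.4 CPM in crest and glia-like and 22.2 CPM in endoderm-like cells. The interval of their ratio of 1.10 (0.964 to 1.26) includes 1. Hoxc5 was highest in surface ectoderm-like cells at 5.90 CPM, against 4.25 in splanchnic mesoderm-like cells; its model shares exon sequence with that of Hoxc10.

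Groups 7 and above were scarce and scattered over different types. Hoxb8 was at 12.1 CPM in neuron-like and 11.0 CPM in crest and glia-like cells, a ratio of 1.10 (0.827 to 1.46), and no other type reached 1 CPM. Over libraries 2 to 6, crest and glia-like cells had 0, 0, 11.8, 21.2 and 5.48 CPM, high in library 5. Hoxb7 and Hoxb9 had 3.34 and 1.53 CPM in crest and glia-like cells and 2.34 and 0.688 CPM in neuron-like cells. The intervals of both ratios, 1.43 (0.784 to 2.70) and 2.23 (0.789 to 7.73), include 1. Hoxa9 was at 1.36 CPM in endothelium-like cells (127 UMIs), with 0.428, 1.46, 1.47, 1.70, 2.73 and 0.825 CPM in libraries 1 to 6. Endothelium-like cells were its highest type in 6 of 6 libraries. Hoxa10 was at 1.45 CPM and Hoxa11, a limb and kidney patterning gene, at 3.30 CPM, each with its maximum in the paraxial mesoderm-like type. Hoxa11 had 7.77, 4.35, 8.55, 3.52, 1.82 and 1.94 CPM there in libraries 1 to 6. These were 100 of its 116 UMIs over all retained cells, and they came from 1.85% of the 973 cells. The antisense gene Hoxa11os was at 3.46 CPM in the same type and at 0.0209 CPM at most in any other. Hoxc13, a hair and nail gene in later life, peaked in the surface ectoderm-like type at 0.388 CPM (15 of its 30 UMIs). Hoxc8 was also highest in that type, at 0.362 CPM (14 UMIs). Hoxc6 was at 0.906 CPM there and 0.361 CPM in crest and glia-like cells, a ratio of 2.51 whose interval (0.898 to 9.73) includes 1. Group 12 was represented by 2 UMIs of Hoxc12 in a cell outside the 14 types.

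The clusters contributed unequal shares of Hox UMIs in different types. HoxB genes gave 81.8% of Hox UMIs in neuron-like cells and 78.0% in surface ectoderm-like cells, and 50.35% in endothelium-like cells. HoxD genes gave 21.5% in crest and glia-like, 17.85% in branchiomeric muscle-like, 14.2% in paraxial mesoderm-like and 13.8% in crest mesenchyme-like cells. Their share was 0.240% in endoderm-like, 0.275% in surface ectoderm-like, 0.679% in splanchnic mesoderm-like and 0.737% in neuron-like cells. The HoxD genes behind these shares differed. In branchiomeric muscle-like cells Hoxd1 alone had 9.42 of the 14.6 CPM of HoxD genes. Crest and glia-like, paraxial mesoderm-like and crest mesenchyme-like cells were the types with high Hoxd3 and Hoxd4. HoxC genes gave their highest shares in the epithelia, with 9.03% in endoderm-like and 7.57% in surface ectoderm-like cells, and 0.619% in paraxial mesoderm-like cells. Crest and glia-like cells, with the highest HoxD share, had 5.43% from HoxC genes. The HoxC level was also highest there, at 27.9 CPM against 26.2 CPM in endoderm-like cells. HoxA genes gave 43.1% in endothelium-like and 41.1% in splanchnic mesoderm-like cells.

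**Figure D2:**
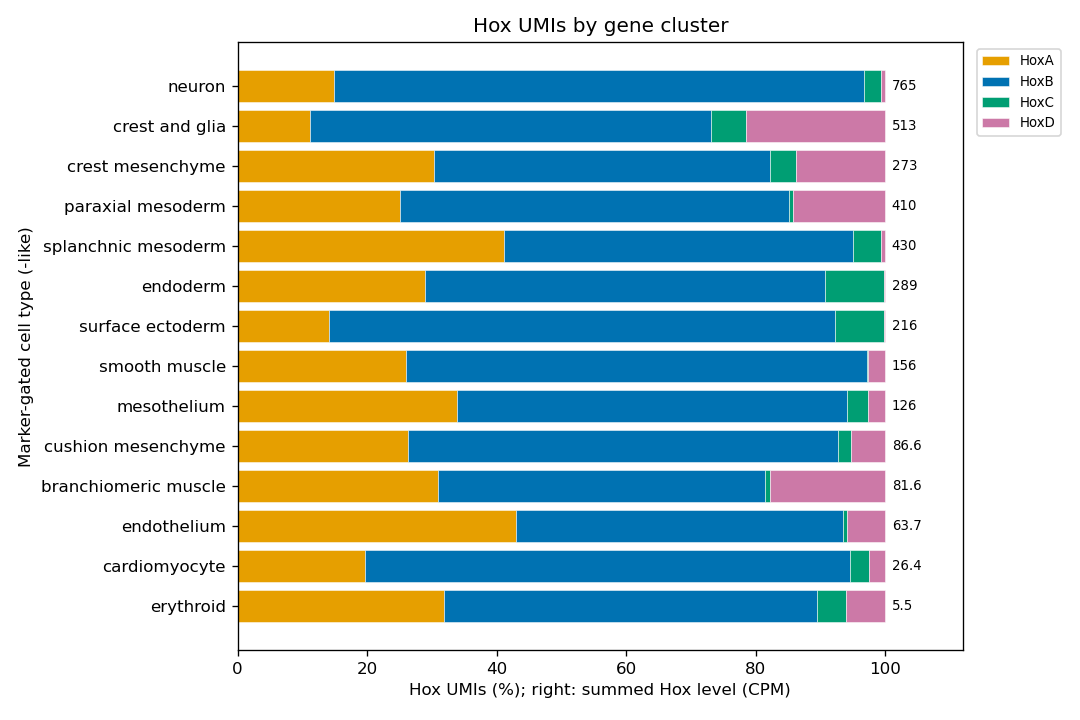
Share of Hox UMIs (percent, bars) from each of the 4 clusters in the 14 cell types, with the summed Hox level in CPM printed at the right. HoxD fills 21.5% of the bar in crest and glia-like cells and 0.240% in endoderm-like cells, while HoxB is the longest segment in every type.

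Across the 14 types, levels of genes that neighbour each other in a cluster moved together most by the median of their pairs. The Pearson correlation of log2(CPM + 1) over the 14 types had a median of 0.912 over 10 pairs of neighbours and 0.690 over 22 pairs further apart in the same cluster. It was 0.654 over 12 pairs of 1 paralog group and 0.560 over the other 61 pairs. The ranges overlapped, at 0.671 to 0.963 for neighbours and -0.118 to 0.927 for the other pairs. The highest neighbour pair was Hoxd3 and Hoxd4, whose exons overlap on the same strand. The points share libraries, and erythroid-like cells are low in all 15 genes. Among 11479 genes, those with a pattern most like Hoxb4 were Hoxb3 (0.956), Hoxa3 (0.927) and Megf9 (0.912). Hoxb3 was most like Hoxb4 and then Lrp3 and Nsg1 (0.930 each). Hoxb1 was most like Plch1 (0.912), Arg1 (0.883) and A830018L16Rik (0.878), and Hoxb2 most like Scd1 (0.961), Mtmr4 (0.961) and Capn10 (0.950). Hoxb5 was most like Wdr25 (0.941), Hoxb6 (0.938) and Phf21b (0.932), and Hoxb6 most like Chrna4 (0.963), Pcsk2 (0.952) and Miat (0.943). Hoxb8 was close to Lgi4 (0.958) and Insc (0.954). All are correlations over 14 points.

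The highest-numbered group detected in a cell was compared between types. A group at under 100 CPM gives on average less than 1 UMI at 10000 UMIs per cell, so cells of equal expression also scatter over these classes, and the shares describe detection. To compare cells of unequal depth, each was thinned at random to 10000 UMIs, leaving out 1009 shallower retained cells. The highest-numbered group with a UMI was group 5 in 29.2% of neuron-like cells and group 6 or above in 26.6%. In splanchnic mesoderm-like cells it was group 5 in 38.4% and group 4 in 32.8%. It was group 4 in 51.0% of crest and glia-like cells. Surface ectoderm-like cells had group 2 as the highest in 42.9%, and branchiomeric muscle-like cells group 1 in 7.44%, more than in any other type. Before thinning, 0 of 298 crest and glia-like cells lacked a Hox UMI (upper limit 1.23%). After thinning 2.37% of them did, against 80.5% of cardiomyocyte-like and 97.3% of erythroid-like cells.

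**Figure D3:**
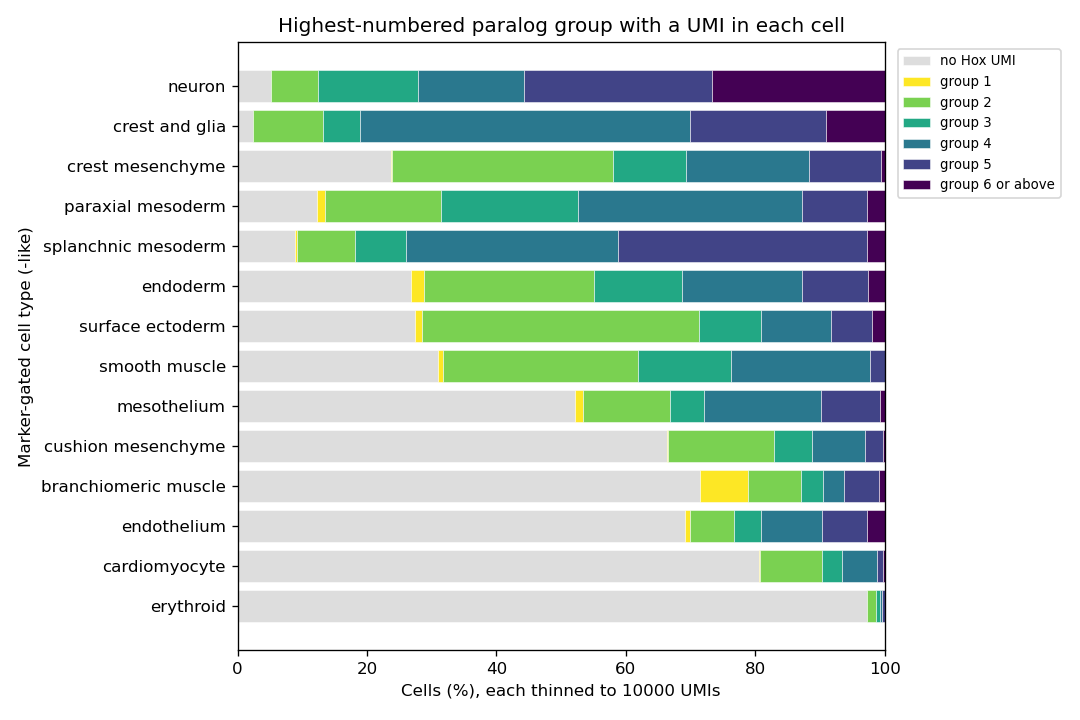
Share of cells (percent, bars) by the highest-numbered paralog group with a UMI, after thinning each cell to 10000 UMIs, in 14 cell types. Grey, cells with no Hox UMI, covers 97.3% of erythroid-like and 2.37% of crest and glia-like cells; the darkest segment, group 6 or above, is widest in neuron-like cells at 26.6%.

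How often groups were found in the same cell, after thinning, varied by type. Of splanchnic mesoderm-like cells with a group 4 UMI, 45.6% (42.9 to 48.2) had a group 3 UMI, little above the 41.6% of all of them. Of branchiomeric muscle-like cells with a group 3 UMI, 53.3% (40 to 66.3) had a group 4 UMI, against 7.44% of all, but these were 60 cells. In crest mesenchyme-like cells, 72.9% (70.9 to 74.8) of those with a group 4 UMI also had a group 3 UMI, against 33.5% of all of them. Hoxa2 went the other way, found in 24.4% (22.1 to 26.8) of Hoxb4-positive crest mesenchyme-like cells and 34.0% of all. Hoxb2 was found in 63.4% of the Hoxb4-positive cells and 45.3% of all, the opposite order to Hoxa2, the other gene of group 2. Groups 1 and 5 were also found together in several types, but not in all. Of endoderm-like cells with a group 5 UMI, 74.6% (68.4 to 80.1) had a group 1 UMI, against 25.6% of all endoderm-like cells. The same shares in crest mesenchyme-like cells were 24.1% (21.1 to 27.2) and 6.16%, lower but again higher with a group 5 UMI. In crest and glia-like cells the shares were 5.63% (1.56 to 13.8) and 6.42%, and in neuron-like cells 15.5% (9.46 to 23.4) and 13.3%. For groups 4 and 3 in endoderm-like cells they were 33.2% (29.2 to 37.4) and 24.0%. Of the Hoxb1-positive endoderm-like cells, 48.7% (43.2 to 54.2) had Hoxb4, against 17.1% of all.

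The crest mesenchyme-like cells, the largest type at 6992 cells, were divided by the Hox UMIs detected. Without thinning, 622 of them (8.90%, 8.24 to 9.59) had no Hox UMI, with 4.80% to 14.2% over libraries, and thinned 23.6% had none. The gate asks for 5 of 12 markers, and 2542 retained cells carried exactly 5 and 2755 exactly 4. By highest group, the 6867 cells deep enough to thin split into 1623 with no Hox UMI, 2363 with groups 1 and 2 only, 771 up to group 3 and 2110 with group 4 or above. The last class held 23.3%, 32.7%, 20.1%, 37.8%, 38.7% and 34.8% of the cells of libraries 1 to 6, low in libraries 1 and 3. The classes are ranges and not cell types. Of the 2110 cells, 633 had exactly 1 UMI of group 4 or above, and 1041 of the 1623 with no UMI had a Hox UMI before thinning. Median depths were 37600, 40336, 38643 and 35194 UMIs in the order given.

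A list of 20 genes that mark positions in the pharyngeal arches was set beside these classes; none is a Hox gene, and 5, among them Dlx5, Dlx6, Alx1 and Alx4, are also markers of the gate. Their values are given as a description, with no count, since genes such as Meox1, Six2, Shox2, Alx1 and Alx4 reached 10 CPM only in classes where they were high. These 5 were at least 2 times higher in cells with group 4 or above than in cells with no Hox UMI. Barx1, Gsc and Foxd1 and the gate markers Dlx5 and Dlx6 were at least 2 times lower. Meox1 was at 4.60, 6.09, 4.67, 9.52, 3.20 and 9.82 CPM in cells with no Hox UMI of libraries 1 to 6. In cells with group 4 or above it was at 40.6, 70.4, 43.6, 77.7, 62.6 and 67.4 CPM, with no overlap and a pooled ratio of 10.4 (9.34 to 11.6). Six2 had a ratio of 19.2 (15.6 to 23.8), from 1.56 to 29.9 CPM. Barx1, a gene of the mandibular and maxillary crest, was at 229 CPM in cells with no Hox UMI and at 69.02 CPM with group 4 or above. The ratio was 0.301 (0.292 to 0.311), lower in every library. With groups 1 and 2 only, Barx1 was higher than with no Hox UMI, at 286 CPM, a ratio of 1.25 (1.22 to 1.27) and higher in 5 of 6 libraries. Gsc, at 39.4 and 14.8 CPM, was also lower in 6 of 6.

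In cells with groups 1 and 2 only, Pou3f3 and Emx2 were at least 2 times higher than in cells with no Hox UMI, and both reached 10 CPM only in this class. Pou3f3 was at 11.6, 5.91, 5.23, 27.9, 20.4 and 27.3 CPM in libraries 1 to 6, against 5.30, 1.82, 2.77, 7.22, 1.92 and 11.6 CPM in cells with no Hox UMI. Each library was higher with groups 1 and 2, and the ratio was 3.14 (2.77 to 3.57), though the 2 ranges overlap between libraries. With group 4 or above Pou3f3 was at 1.00 CPM. Emx2 was at 16.7 CPM with groups 1 and 2, 7.13 CPM with none and 4.31 CPM with group 4 or above. In cells up to group 3, Meox1 was at 31.3 and Alx1 at 31.2 CPM, against 6.01 and 7.89 CPM with no Hox UMI. Gsc was at 12.2 and Foxd1 at 12.5 CPM, against 39.4 and 28.6 CPM.

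Summed marker lists of other types differed between the classes too, the paraxial and splanchnic mesoderm lists mainly through Meox1 and Barx1. The paraxial mesoderm list, of which Meox1 is a member, summed to 18.5 CPM in cells with no Hox UMI (13.3 to 22.8 over libraries) and to 75.0 CPM with group 4 or above (51.5 to 93.2), against 672 CPM in paraxial mesoderm-like cells. The median of the paraxial list over cells was 0 and 40 CPM. Meox1 alone went from 6.01 to 62.4 CPM, nearly the whole of the rise in the sum. The sum of the other paraxial genes was therefore almost the same in these classes. Of the 10 paraxial genes, 4 were at least 2 times higher (Meox1, Meox2, Pax3 and Tbx18). Pax1, Uncx, Pax3, Mesp2 and Ripply2 were under 1 CPM with group 4 or above. The cushion mesenchyme list went from 87.9 to 148 CPM, the migratory crest and glia list from 10.2 to 20.9 CPM and the splanchnic mesoderm list from 271 to 171 CPM. Barx1, a member of the splanchnic list, fell from 229 to 69.02 CPM between the same classes, more than the whole list did. The sum of the other splanchnic genes was therefore higher with group 4 or above. Of the 10 splanchnic genes, 5 (Wnt2, Tbx5, Gata4, Gata6 and Tbx4) were at least 2 times higher in that class. Among all 8549 genes at 10 CPM in either class, 2.61% were at least 2 times higher with group 4 or above. The paraxial and splanchnic counts had no such minimum and include Pax3 at under 1 CPM, so the shares are not like for like. The part of these markers in the difference between classes was not tested.

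**Figure D4:**
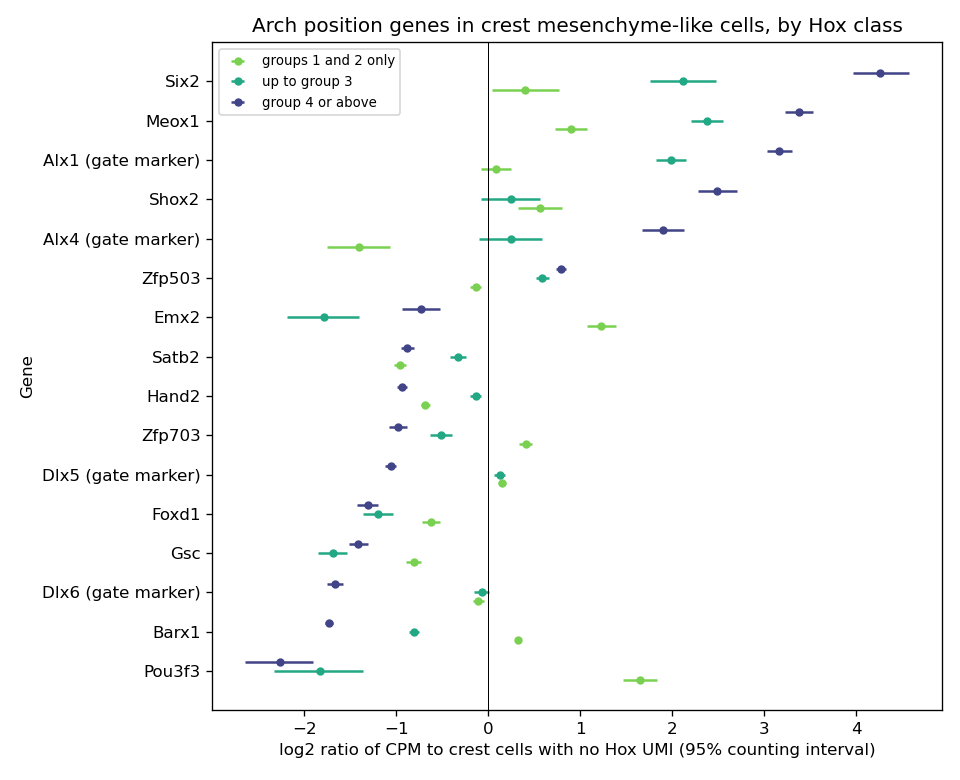
Log2 ratio of the level of position genes in crest mesenchyme-like cells of 3 Hox classes to the level in cells with no Hox UMI, with 95% counting intervals as bars; 0 is no difference. Six2 and Meox1 lie far to the right with group 4 or above (ratios 19.2 and 10.4), and Pou3f3 lies right of 0 with groups 1 and 2 only and left of it in the other classes.

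Hox levels varied between libraries more in some types than in others. In splanchnic mesoderm-like cells, 8 of the 10 Hox genes at 10 CPM had at least 2 times the level in the highest library as in the lowest, against 6.88% of the 8774 genes at 10 CPM there. In mesothelium-like cells it was 5 of 5 against 3.08%, in endothelium-like cells 2 of 2 against 2.13% and in cushion mesenchyme-like cells 4 of 4 against 7.90%. In crest mesenchyme-like cells it was 1 of 7 (Hoxd3) against 1.27%, in endoderm-like cells 2 of 8 against 2.66%, in surface ectoderm-like cells 1 of 5 against 2.57% and in cardiomyocyte-like cells 0 of 1 against 0.876%. In the neuron-like, crest and glia-like, paraxial mesoderm-like, smooth muscle-like and branchiomeric muscle-like types it was 7 of 12 against 18.5%, 3 of 10 against 12.8%, 4 of 8 against 13.6%, 2 of 4 against 14.0% and 2 of 2 against 6.81%. Not all genes of a type moved. In splanchnic mesoderm-like cells Hoxb3 stayed at 30.3 to 38.9 CPM while Hoxa5 ran from 11.8 to 80.3 and Hoxc4 from 3.51 to 21.7 CPM. In mesothelium-like cells Hoxa5 was at 2.95, 5.19, 11.2, 12.0, 26.8 and 11.6 CPM in libraries 1 to 6, lowest in library 1 and highest in library 5 as in the splanchnic type. The splanchnic mesoderm-like cells numbered 127, 126, 297, 407, 745 and 454 in libraries 1 to 6, so the libraries with the fewest such cells had the lowest Hoxa5. The part of cell number in this spread was not tested. Treatment and library cannot be told apart here.

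**Figure D5:**
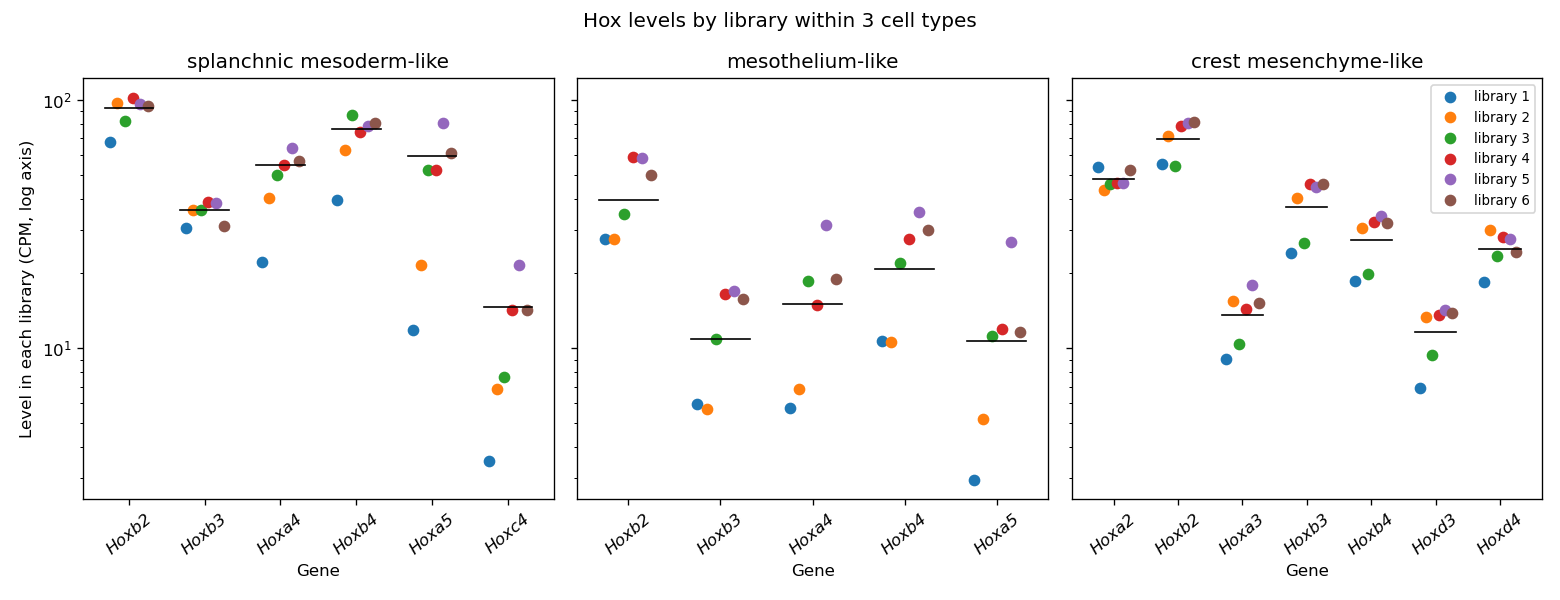
Level of Hox genes (CPM, log axis) in each of the 6 libraries within splanchnic mesoderm-like, mesothelium-like and crest mesenchyme-like cells; points are libraries and lines the pooled level. Hoxa5 spreads from 11.8 to 80.3 CPM in the first panel, while Hoxa2 in the last lies between 43.3 and 53.5 CPM.

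All 9 TALE cofactors, the partners of the Hox proteins, reached 10 CPM in some type, against 35.6% of all genes, but Pbx4 did so in only 3 of the 14 types. Meis2 reached 1227 CPM in surface ectoderm-like and 23.6 CPM in erythroid-like cells. Meis3 was highest in neuron-like cells at 79.9 CPM, followed by crest and glia-like cells at 51.8 CPM, which are also the types with the highest summed Hox level. Of 14 known regulators of Hox genes, 10 reached 10 CPM, against the same 35.6%. The Cdx genes, which drive posterior Hox expression in the tail bud, and Egr2, a hindbrain regulator, did not. Cdx1 was at 1.12 CPM at most, Cdx2 at 0.0339 CPM, Cdx4 had no UMI in any of the 14 types and Egr2 was at 2.62 CPM at most. Rarb, a retinoic acid receptor that is itself induced by retinoic acid, was highest in endoderm-like cells at 119 CPM (94.6 to 139 over libraries), the type where Hoxb1 was highest, and next in splanchnic mesoderm-like cells at 101 CPM. The other receptors had other highest types, Rara crest and glia-like cells at 77.3 CPM (36.4 in endoderm-like) and Rarg crest mesenchyme-like cells at 35.6 CPM (4.88 in endoderm-like).

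Of 12 listed noncoding genes of the clusters, 10 are in the gene list and 4 reached 10 CPM, a share near the 35.6% of all genes. Hotairm1, a noncoding gene of the HoxA cluster, was at 101 CPM in endoderm-like cells (87.8 to 111 over libraries) and next at 53.3 CPM in splanchnic mesoderm-like cells. Hoxb3os, opposite Hoxb2 and Hoxb3, was at 83.5 CPM in neuron-like and 79.7 CPM in surface ectoderm-like cells, which are also the 2 highest types of Hoxb2. Hoxaas3 was highest in splanchnic mesoderm-like cells at 22.4 CPM, and Hoxaas2 in crest mesenchyme-like cells at 12.0 CPM. Hottip and Hotair, from the posterior ends of HoxA and HoxC, had no UMI in any of the 14 types.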

How the data were processed

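Single-cell RNA was measured in 6 samples of dissociated cardiogenic tissue with 10x Genomics 3′ kits, version 3, per the labels' protocols. The labels' descriptions name a chromatin assay, while titles, molecule and kit name RNA, and the values were treated as RNA. The authors deposited 1 matrix of whole-number UMI counts per gene and barcode for all samples, and per the file headers they are output of Cell Ranger 5.0.0. The submitters' processing notes also list mm10, Seurat 4 and CASAVA 1.8, with no role. The annotation release and cell-calling settings were not given in the sources used here. The value column names no sample, and nothing pairs a suffix with a sample.

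From these counts, barcodes with at least 2500 genes and at most 10% mitochondrial UMIs were kept. A marker was on with at least 1 UMI and a share of UMIs above its mean over kept cells, and a type needed 3 to 9 of its own markers. A gate could also exclude cells that met the marker minimum of another named list. A cell that met both minimums could then still be given a type. UMIs were summed per type and per library with at least 20 cells. Each cell was thinned once to 10000 UMIs where shares were compared. No doublet caller was run; cells in more than 1 gate were left out, and cells over 2 times their type's median UMIs were left out as an alternative.

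All 39 Hox genes enter the counts, and results that need a few withheld genes are not reported here. Pooled levels or counts were given for the gene of each paralog group with the highest CPM, with library values for some of them. The same holds for the 3 highest Hox genes of a type where these carry the result. Genes among the 3 most like each by correlation are named. Other genes named in the crest comparison come from a list. The members and lists were chosen with earlier results of these data known. The marker minimums, the Hox classes of crest cells, the co-detection and the motifs were set after the data had been seen, and the first view of the gates also showed Hox levels. Gene positions and overlaps came from GENCODE M21 and promoters from RefSeq. Python 3.11.15, NumPy 2.4.6, SciPy 1.17.1 and pandas 2.3.3 were used, and the ratio step was tested on simulated data. Alternatives were the cell filter, shared barcodes, gate strictness, depth, library weights, high-UMI cells, the level minimum and each library left out.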

Additional observations from a re-analysis of the deposited data

Results flagged for a closer look

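The cells outside the named types also held Hox RNA, and no comparison between types uses them. The 8583 cells that passed no gate had 301 CPM of Hox UMIs, where a count of 0 allows up to 0.0137 CPM. Their highest genes were Hoxb2 at 100 CPM, Hoxb4 at 40.7 CPM and Hoxa2 at 37.8 CPM, and 9 Hox genes reached 10 CPM. Their median depth was 24397 UMIs, against 32765 over all retained cells. The 3367 cells that passed more than 1 gate had 251 CPM, a median depth of 39337 UMIs and Hoxb2 at 72.1 CPM. What these cells are was not tested. Of the smaller types, 23 neural progenitor-like cells had 286 CPM and 70 macrophage-like cells 14.9 CPM.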

How the results depend on the processing

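The number of Hox genes at 10 CPM was 14 to 17 over all alternatives, the latter at a minimum of 5 CPM, and 15 without each library in turn. The number with the same highest type in every library with enough cells was 8 to 11 (9 to 11 without a library, and 11 without library 1). The share of crest mesenchyme-like cells with no Hox UMI was 8.90%. It was 11.1% with at least 1000 genes and at most 20% mitochondrial UMIs, 8.13% with 1 more marker, 23.6% at 10000 UMIs per cell and 7.98% to 9.88% without each library in turn. Of the 15 ratios of the highest to the next type under 12 settings, 180 values in all, 160 stayed within the counting interval and 20 did not; the cause was not tested. The ratio was at least 2 for 5 to 9 genes, against 7. Hoxb8 and Hoxc4, whose intervals include 1, changed sign, with log2 ratios of -0.26 to 0.89 and -0.10 to 0.29. Hoxd3 ran from 0.30 with 1 more marker to 1.38 without library 5. No paired analysis was possible because the matrix does not say which barcodes belong to which sample. Depth limits rare genes: 9 Hox genes had 1 to 30 UMIs in all, so any ratio between types has a wide counting interval. With 1 pooled matrix, differences between embryos are not measured.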
